A study of Mus musculus with 3 samples.

Results

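Fibro-adipogenic progenitors (FAPs) are the *Pdgfra*-expressing mesenchymal cells that lie between the fibers of skeletal muscle. They produce most of the muscle's extracellular matrix, signal to muscle stem cells (MuSCs) and can become fibroblasts or adipocytes. The cells described here were the FAPs of mouse costal diaphragm whose RNA leaned most toward 4 genes, *Gdf10*, *Rbp4*, *Penk* and *Apod*. There were 937 of them among 5808 FAPs and 12275 cell barcodes in all. A barcode counted as a FAP with at least 1 *Pdgfra* unique molecular identifier (UMI, a tag that counts each captured mRNA once), at least 3 *Dcn* UMIs and none of *Ptprc*, *Pecam1* or *Pax7*. Each FAP was scored on 7 sets of 4 genes, named A to G, by the mean of z-scores of log counts, and a cell was kept when the set of these 4 genes (set E) had its highest score.

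Droplet single-cell RNA sequencing was run on 3 libraries of diaphragm mononuclear cells, with 1 library per group. The WT CD library came from wild-type C57BL/6J mice on control diet for 6 months. The WT HFD library came from the same strain after 6 months on a high-fat diet with 45% of kcal from lipid, and the KO HFD library from B6.129S2-Thbs1tm1Hyn/J mice, a germline knockout of thrombospondin-1, on that high-fat diet. There was no knockout library on control diet. Per the study's methods the mice were male and each library pooled cells of 2 mice, and the mice cannot be separated in the counts. With 1 library per group no difference between groups has a replicate check, no test was made, and the 95% intervals given below cover counting error only.

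WT CD held 380 members among 1930 FAPs (19.7%, exact Clopper-Pearson interval 17.9 to 21.5), WT HFD 229 among 1779 (12.9%, 11.4 to 14.5) and KO HFD 328 among 2099 (15.6%, 14.1 to 17.3). These shares account for the members and are not a comparison of groups, because the levels of the 4 genes that set them also differed between the libraries. The members' summed depth was 3112204 UMIs in WT CD, 1898117 in WT HFD and 2584134 in KO HFD, with a median of 8053.5, 8064 and 7777 UMIs per cell. Other FAPs were somewhat deeper, with medians of 8725, 9355.5 and 8545 UMIs. The mitochondrial share was close in both (2.82 to 3.17% in members, with the other FAPs within that range), and 5 of the 937 members were called doublets. WT HFD and KO HFD shared 2 barcodes that belonged to a member in at least 1 of them, 1 of which was a member in both; the 7 barcodes that WT CD shared with each of the others included no member.

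*Thbs1*, the gene targeted in the knockout, was read at 153 UMIs per 1000000 (CPM) in WT CD members, 134 in WT HFD members and 184 in KO HFD members. In other FAPs it stood at 205, 252 and 237 CPM. *Thbs1* UMIs were therefore present in the knockout library at levels like those of the wild types. The chemistry reads the 3′ end of a transcript, and where the deleted part of the gene lies was not given in the sources used here, so this level checks nothing about the genotype.

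The members carried the FAP markers in every library. *Dcn* (decorin) stood at 18209, 16767 and 18414 CPM in WT CD, WT HFD and KO HFD, *Pdgfra* at 506, 590 and 558, *Pdgfrb* at 112, 100.1 and 117, and *Osr1* at 97.4, 113 and 84.0. *Pdgfra* and *Dcn* were required by the gate, but *Pdgfrb* and *Osr1* were not. Markers of other cells were low. Of the markers not barred by the gate, those for MuSCs, endothelium, lymphatics, Schwann cells, neutrophils, T or NK cells, adipocytes, red cells and cycling cells summed to 5.46 CPM or less per list and library. The macrophage list summed to 12.5, 10.0 and 14.3 CPM and was led by *Lyz2*. The tenocyte list summed to 17.4, 24.8 and 18.96 CPM and was led by *Tnmd*. *Tnmd* and *Fmod* of this list are set D genes, which the rule scored against set E, so a low sum was favoured by the selection. Of its other genes *Scx* had no UMI in any member and *Mkx* 3, 4 and 4. The mural list summed to 22.2, 6.85 and 10.1 CPM, the myofiber list to 25.7, 16.3 and 14.7, and the mesothelial list to 0, 10.0 and 0. The B cell list summed to 13.2, 1.58 and 128 CPM and was led by *Ighm*. Immunoglobulin RNA was the exception, in 2 forms. In WT CD an *Igkc* UMI was found in 28.4% of members (108 of 380, 47.6 CPM), against 3.06% in WT HFD and 3.66% in KO HFD. WT CD MuSCs, which should lack it, had a like share of 27.7%, at a median of 4696 UMIs. In KO HFD 9856 of the 9874 *Igkc*, *Jchain* and *Ighm* UMIs of the members sat in 1 cell, of whose 14058 UMIs they were 70.1%, while that cell held 1 *Pdgfra* and 78 *Dcn* UMIs.

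The genes of the rule encode secreted proteins of different kinds. *Gdf10* encodes BMP-3b, a ligand of the TGF-β superfamily. *Rbp4* encodes the plasma carrier of retinol, *Penk* the precursor of the enkephalin opioid peptides, and *Apod* a lipocalin that binds small lipids such as arachidonic acid and progesterone. In GRCm38 they lie on 4 chromosomes: *Gdf10* at chr14:33923587-33937983 on the plus strand, and *Rbp4* at chr19:38116629-38125281, *Penk* at chr4:4133531-4138819 and *Apod* at chr16:31296192-31314808 on the minus strand.

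The promoters are shown because the rule groups these genes by their joint level. Each RefSeq promoter (GRCm38.p6) runs from 250 bases before to 50 after an annotated start, 5′ to 3′ on the gene's strand, and 3 of the 4 genes matched the table. *Rbp4* has 2 annotated starts. Capitals mark matches on either strand to a TATA box (TATAAA), a GC box (GGGCGG), an AP-1 site (TGANTCA) or a CRE (TGACGTCA).
Gdf10, chr14:33923337-33923636, plus strand: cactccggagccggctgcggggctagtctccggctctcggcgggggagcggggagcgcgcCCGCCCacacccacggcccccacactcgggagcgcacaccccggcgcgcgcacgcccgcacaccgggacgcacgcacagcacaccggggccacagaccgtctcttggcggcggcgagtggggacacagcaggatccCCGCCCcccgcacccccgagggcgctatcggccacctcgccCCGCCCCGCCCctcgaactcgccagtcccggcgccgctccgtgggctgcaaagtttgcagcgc
Rbp4, upstream start, chr19:38125272-38125571, minus strand: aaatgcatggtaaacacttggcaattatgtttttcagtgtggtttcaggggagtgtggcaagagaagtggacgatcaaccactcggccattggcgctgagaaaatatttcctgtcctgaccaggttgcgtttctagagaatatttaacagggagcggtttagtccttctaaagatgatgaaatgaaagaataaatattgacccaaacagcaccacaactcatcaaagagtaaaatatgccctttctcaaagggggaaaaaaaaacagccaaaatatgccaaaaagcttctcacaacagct
Rbp4, downstream start, chr19:38124762-38125061, minus strand: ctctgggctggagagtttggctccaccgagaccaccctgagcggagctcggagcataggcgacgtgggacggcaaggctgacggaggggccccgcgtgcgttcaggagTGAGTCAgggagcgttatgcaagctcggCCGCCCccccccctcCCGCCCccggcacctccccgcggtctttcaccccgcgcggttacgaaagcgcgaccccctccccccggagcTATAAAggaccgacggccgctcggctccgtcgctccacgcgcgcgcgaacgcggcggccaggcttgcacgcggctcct
Apod, chr16:31314759-31315058, minus strand: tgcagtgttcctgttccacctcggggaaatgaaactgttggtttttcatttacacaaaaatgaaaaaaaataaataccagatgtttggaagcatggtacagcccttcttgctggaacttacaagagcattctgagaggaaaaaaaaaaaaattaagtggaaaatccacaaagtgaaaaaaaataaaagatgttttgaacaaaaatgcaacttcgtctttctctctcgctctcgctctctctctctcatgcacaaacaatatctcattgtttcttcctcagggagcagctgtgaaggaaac
The windows differed in base content, and no motif was found in all of them. The *Gdf10* window was 77.3% G or C and held 4 GC boxes, whereas the *Apod* window was 37.3% G or C and held none of the 4 motifs, as did the upstream *Rbp4* window at 40.7%. The downstream *Rbp4* window was 72% G or C, with a TATA box starting 28 bases before the start, an AP-1 site 142 bases before it and 2 GC boxes. The median over all 32851 promoters was 52.7%, and the motifs occurred in 13.6% (TATA box), 35.7% (GC box), 7.81% (AP-1) and 1.79% (CRE) of them. A match is a description of the letters, not evidence of a bound site.

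The members were chosen by the levels of these 4 genes in the same cells, so the values are given as a description. *Gdf10* stood at 186, 208 and 211 CPM in WT CD, WT HFD and KO HFD members, against 32.4, 20.3 and 34.9 CPM in other FAPs. *Rbp4* stood at 150.4, 167 and 146 CPM against 34.0, 26.2 and 34.2, and *Penk* at 648, 553 and 596 CPM against 188, 125 and 186. *Apod* stood at 1266, 748 and 1175 CPM against 212, 208 and 169.7. In each library every gene was higher in the members, and for *Apod* the WT HFD members were the lowest.

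A UMI of *Penk* was found in 91.1, 93.0 and 90.5% of members, one of *Apod* in 72.6, 73.8 and 77.7%, one of *Gdf10* in 57.9, 59.8 and 56.7% and one of *Rbp4* in 53.4, 55.9 and 52.4%. Few members therefore showed the whole set: 160 of the 937 had all 4 genes, 435 had 3, 315 had 2 and 27 had 1. Leukocytes, which should lack these transcripts, served as the measure of free RNA. *Gdf10* was seen in 0 of 686 leukocytes in WT CD, 0 of 597 in WT HFD and 0 of 686 in KO HFD (3 counts of the total, the limit a count of 0 allows, are 0.437, 0.503 and 0.437%), at median depths of 8855, 8485 and 8380 UMIs. *Penk* was seen in 0.875, 0.335 and 0.146% of them and *Apod* in 1.31, 0.335 and 0.583%. As the members were chosen on these 4 genes, their own shares are not read against it. Among other FAPs *Gdf10* was found in 15.3, 10.8 and 16.1%.

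Many cells lay near the cut. The median member's set E score exceeded its next highest set by 0.42 z units, and 126 members led by less than 0.1. These cells had 106 CPM of *Gdf10*, 94.3 of *Rbp4*, 381 of *Penk* and 543 of *Apod*, and the 134 FAPs that missed the class by less than 0.1 had 80.8, 91.3, 392 and 592 CPM. These are the values of the rule in cells picked for lying near its cut, so they only show where the cut fell. As a class cut from a score, the members are a range of FAPs by construction.

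**Figure D1:**
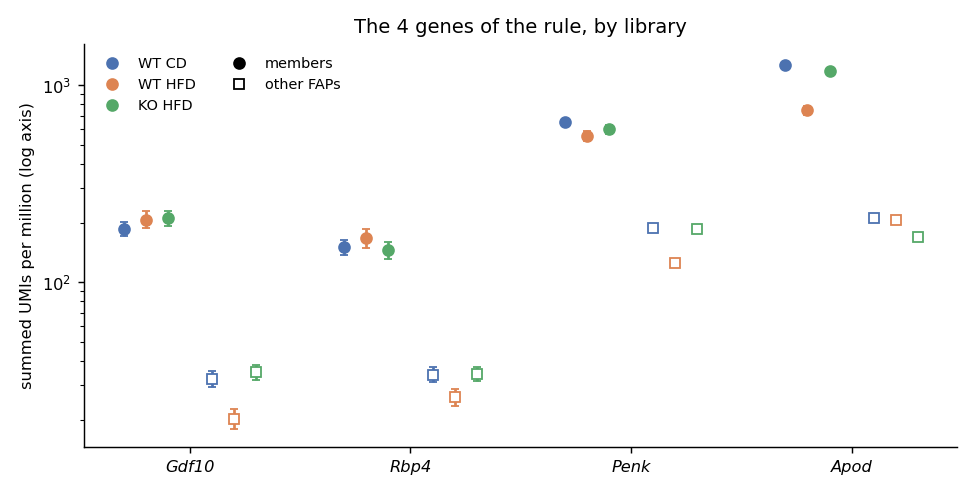
Summed UMIs per 1000000 (log axis) of *Gdf10*, *Rbp4*, *Penk* and *Apod* in the members (filled circles) and the other FAPs (open squares) of each library (blue WT CD, orange WT HFD, green KO HFD); bars are 95% Poisson intervals for counting error. All 12 member values lie above the other FAPs of the same library, and *Apod* is lowest in WT HFD members at 748.

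The 4 genes did not mark the same members. Members with a *Gdf10* UMI had 548, 500.1 and 383 CPM of *Apod*, and members without had 2354, 1141 and 2398. *Penk* hardly differed between these cells (663 against 625 CPM in WT CD, 559 against 542 in WT HFD and 585 against 613 in KO HFD). Since either gene can bring a cell into the class, members that lack *Gdf10* must be high in another gene of the set, and the contrast is in part built in.

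*Apod* was carried by few cells. A count of 20 or more *Apod* UMIs was found in 26 members of WT CD, 11 of WT HFD and 26 of KO HFD, and these 63 cells held 68.8, 47.5 and 69.5% of the members' *Apod* UMIs. Among the remaining members, which the split itself caps, *Apod* stood at 422, 407 and 383 CPM. Only 14 of the 63 had a *Gdf10* UMI. They were shallower than the remaining members, with medians of 6965.5, 6278 and 5646 UMIs against 8080.5, 8098.5 and 7858.5, and none was called a doublet. This split was chosen after the values were seen and has no test.

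The genes named for the *Apod*-rich members were ranked on their ratio in all 3 libraries, so that they repeat across libraries is part of the choice. *Rasgrp2*, which encodes an exchange factor for the small GTPase Rap1, stood at 176, 131 and 281 CPM in them and at 9.59, 8.75 and 11.6 CPM in the other members. *Smim41*, a small membrane protein gene, stood at 202, 102 and 173 CPM against 9.93, 5.47 and 14.1. *Apoe*, the lipoprotein ligand, stood at 2914, 2805 and 3404 CPM against 779.7, 628 and 659, and *Ccl11*, the eosinophil chemoattractant eotaxin, at 1512, 974 and 2674 against 257, 276 and 278. Higher by the same ranking were *Abca6*, *Vwa1*, *Rgmb*, *Cp*, *Gpc3* and *Vit*, the last of which is a gene of set C. A *Rasgrp2* UMI was present in 42.3, 36.4 and 53.8% of the *Apod*-rich members. With the split at 10 *Apod* UMIs (68, 36 and 46 cells) *Rasgrp2* stood at 62.1, 39.2 and 156 CPM against 10.6, 8.17 and 11.04. Other named genes shrank more, such as *Rgmb*, with log2 ratios of 0.33, 0.33 and 1.52, and *Cp*, with 1.14, 0.37 and 1.71.

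The 10 genes ranked lowest in the *Apod*-rich members included *Pi16*. *Pi16*, a marker of adventitial fibroblast progenitors, stood at 207, 145 and 191 CPM against 1319, 1445 and 1396 in the other members. *Ptgis*, the prostacyclin synthase, stood at 51.8, 58.1 and 47.9 CPM against 218, 215 and 207, and *Mfap4*, a microfibril protein gene, at 77.7, 276 and 173 CPM against 487, 852 and 752. *Pcsk6*, *Angptl1*, *Loxl1*, *Cilp*, *Fst*, *Hmcn2* and *Tsc22d1* were the others named by the ranking. With the split at 10 *Apod* UMIs all of these differences were smaller. *Pi16* then stood at 830, 972 and 518 CPM against 1343, 1480 and 1431. *Hmcn2* was hardly apart, with log2 ratios of 0.09, −0.11 and −0.03. *Fst* gave −0.12, −0.21 and −1.01 and *Loxl1* −0.67, −0.04 and −0.88. All named lower genes but *Hmcn2* stayed lower in each library. Not all matrix genes were lower, as *Dcn* stood at 34321, 24302 and 33372 CPM against 17143, 16483 and 17380. The WT HFD values rest on 11 cells, with 9 *Rasgrp2* and 10 *Pi16* UMIs.

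The same genes were seen in FAPs outside the class, whose values no part of this ranking used. Among other FAPs, 20 cells of WT CD, 23 of WT HFD and 15 of KO HFD had 20 or more *Apod* UMIs, and most of these belonged to set A (43 of 58). They had 168, 235 and 284 CPM of *Rasgrp2* against 8.21, 6.65 and 9.67 in FAPs with less *Apod*, and 361, 681 and 608 CPM of *Pi16* against 2491, 2605 and 2408. *Apoe* stood at 1405, 619.7 and 2717 CPM against 336, 192 and 321. Each of the 20 named genes went the same way there as in the members in all 3 libraries. The *Apod*-rich cells were spread over more than 1 class of the scoring. The FAPs with less *Apod* came from all sets but E, whereas the *Apod*-rich ones were mostly set A. Set A cells with and without 20 *Apod* UMIs were not compared, so what set A itself adds was not tested.

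**Figure D2:**
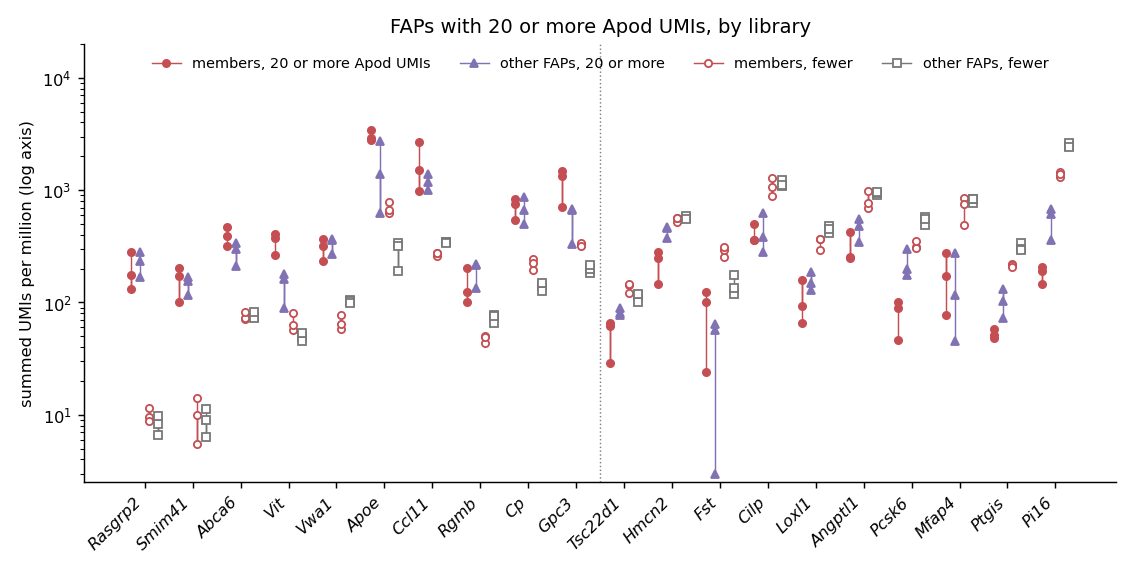
Summed UMIs per 1000000 (log axis) of the 20 genes that differed most between members with 20 or more *Apod* UMIs (filled circles) and members with fewer (open circles), with other FAPs with 20 or more (triangles) and fewer (squares); each symbol is 1 library, and a value of 0 is drawn at 3. The 10 genes left of the dotted line are higher and the 10 right of it lower in the *Apod*-rich cells, inside and outside the class.

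Members with a *Gdf10* UMI leaned toward other genes. *Fmo2*, a flavin monooxygenase, stood at 160.1, 153 and 186 CPM in them against 38.8, 47.8 and 62.1 in members without. *Nrp1*, a co-receptor for semaphorins and VEGF, stood at 106, 133 and 105 CPM against 33.9, 72.4 and 64.0, and *Col6a5*, a collagen VI chain gene, at 355, 388 and 402 against 193, 216 and 234. *Cd55*, which encodes a complement decay factor, was lower at 87.5, 124 and 119 CPM against 193, 179 and 167. This split too was made after the values were seen.

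Genes outside the rule were then set against the other FAPs of the same library. Since the rule sorted these same cells, nothing is inferred from this contrast. The minimum was at least 50 CPM in every library, either in members or in other FAPs, and 2671 genes met it. Of these, 28 were at least 1.5-fold higher in members in all 3 libraries (1.05%) and 43 at least 1.5-fold lower (1.61%). A gene so counted had the minimum on its higher side. With TMM scaling of library sizes the split was 38 higher and 34 lower. The median log2 ratio over all genes was −0.07, −0.07 and −0.06 in WT CD, WT HFD and KO HFD.

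Among the leading higher genes, *Apoe* stood at 912, 706 and 837 CPM in members of WT CD, WT HFD and KO HFD against 348, 198 and 339 in other FAPs. *Gpx3*, the secreted glutathione peroxidase, stood at 2038, 1698 and 1818 CPM against 963, 642 and 841, and *Aoc3*, a copper amine oxidase gene, at 78.7, 90.6 and 78.9 against 30.3, 32.9 and 44.8. *Steap4*, a metalloreductase gene, stood at 164, 203 and 195 CPM against 69.6, 70.7 and 87.5. Part of the *Apoe* level came from the *Apod*-rich members, but without them it was still 779.7, 628 and 659 CPM. Without these 63 cells the call was lost for 1 of the 12 leading higher genes, *Gpc3*, a glypican gene, with log2 ratios of 0.81, 0.77 and 0.54.

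*Sfrp1*, a secreted Wnt antagonist, stood at 395, 566 and 487 CPM in members against 174, 170.2 and 224. Of the complement list 11 of 17 genes were tested. At least 1.5-fold higher in all libraries were 3 (4 with TMM scaling) and lower 1, against 1.05% and 1.61% of all genes. Higher were *C4b* (266, 234 and 242 CPM against 82.6, 92.3 and 136), *C7* (566, 419.9 and 407 against 298, 184 and 215) and *Cfb* (100.2, 116 and 137 against 38.3, 51.1 and 47.9), which encode a classical, a terminal and an alternative pathway component. *C3* stood at 2644, 2917 and 2989 CPM against 1580, 1729 and 2043, short of 1.5-fold in KO HFD. The lower gene was *Cd55*, an inhibitor of the C3 convertases, at 129 to 145 CPM against 343 to 498.

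On the lower side, of the 8 tested genes of the list for universal fibroblast progenitors, the *Pi16*+ cells thought to feed other fibroblasts, 6 were at least 1.5-fold lower and none higher (*Cd55*, *Uap1*, *Fbn1*, *Anxa3*, *Has2* and *Pi16*), against 1.61% and 1.05% of all genes. The list's median log2 ratio was −0.923, −0.996 and −1.29. The rule scored set B (*Dpp4*, *Sema3c*, *Efhd1*, *Stmn4*) against set E, so all 1017 set B FAPs sat among the other FAPs. The study places *Dpp4*, *Fbn1* and *Cd55* in 1 FAP subpopulation. Low values of such genes were thus favoured by the selection, and the count is a description only. *Pi16* stood at 1250.2, 1398 and 1318 CPM against 2468, 2578 and 2394, and *Fbn1*, which encodes fibrillin-1, at 334, 458 and 406 against 853, 1248 and 1034. Of 28 collagen and fibrillar matrix genes 5 were lower (4 with TMM scaling) and none higher, against the same 1.61% and 1.05%. *Postn*, which encodes periostin, was the furthest apart of all, at 25.4, 51.1 and 49.5 CPM against 163, 195 and 177. *Thbs4*, a relative of *Thbs1*, stood at 292, 421 and 319 CPM against 1037, 1001 and 825.

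**Figure D3:**
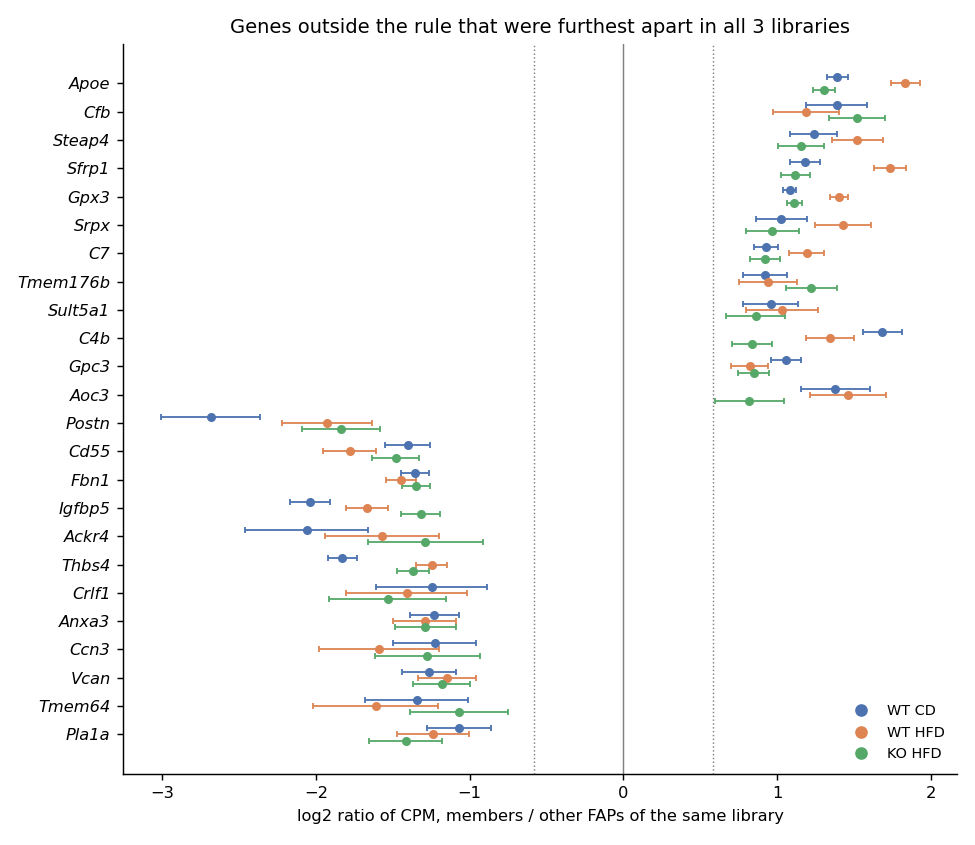
Log2 ratio of CPM between members and other FAPs of the same library for the 12 genes furthest higher and 12 furthest lower outside the rule, one point per library with 95% counting intervals; dotted lines mark 1.5-fold. *Apoe* leads at 1.39, 1.83 and 1.30 and *Postn* is lowest at −2.69, −1.93 and −1.84.

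In the pathways of the 4 genes few members of the lists were past 1.5-fold. Ligands of the TGF-β superfamily act on paired serine-threonine kinase receptors and SMAD proteins. None of the 4 tested ligand genes, 7 receptor genes or 12 SMAD target genes was past 1.5-fold in all 3 libraries, against 1.05% higher and 1.61% lower of all genes. Without the 3 top cells per library and side, 2 of the 4 ligands, 2 of 6 antagonists and 1 of the 12 targets were lower. That setting takes the same number of cells from the members as from the far more numerous other FAPs. It therefore favours lower values in members, and nothing is read from these calls. *Bmpr2*, the type II BMP receptor gene, stood at 86.8, 114 and 96.7 CPM against 112, 129 and 116. Among 6 BMP and activin antagonists *Fst*, which encodes follistatin, was higher (247, 287 and 294 CPM against 118, 133 and 173) and *Fstl1* lower (641, 907 and 731 against 1085, 1418 and 1218). Of the retinoid list 4 genes were tested and of the opioid processing and receptor list 5, with none past 1.5-fold. No opioid receptor gene reached the minimum level.

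Of the lipid list 11 genes were tested, with *Apoe* and *Gpx3* higher and *Pla1a*, a phosphatidylserine lipase gene, lower, against 1.05% and 1.61% of all genes here and in the lists that follow. Single genes were past 1.5-fold in 6 more lists: *Sfrp1* of 6 Wnt genes and *Steap4* of 8 steroid genes were higher, and *Igfbp5* of 8 IGF genes, *Hspg2* of 12 basement membrane genes, *Ackr3* of 9 chemokine and cytokine genes and *Adamts5* of 9 proteases and inhibitors were lower. With TMM scaling no basement membrane gene was past 1.5-fold, while 2 of 6 Wnt, 1 of 10 interferon and 1 of 9 chemokine and cytokine genes were higher. *Igfbp5*, an IGF carrier, stood at 158, 236 and 211 CPM against 651, 752 and 528. None was past it among 21 immediate early, 13 heat shock, 10 interferon, 7 adipogenic and 6 small proteoglycan genes, or for the single tested gene of the nerve-associated and of the neurotrophic list. No *Hox* gene was tested.

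By correlation the most similar FAPs were those of sets G (*Agt*, *Ptx3*, *Has1*, *Cyp1b1*) and C (*Sfrp4*, *Spon2*, *Slc6a2*, *Vit*). Over 3309 genes the correlation of log2 CPM with the members was r = 0.972 for set G and 0.966 for set C, and 0.925 to 0.952 for the other sets; these are across genes of the same libraries and describe only. By the median absolute log2 difference over the same genes set C was nearest (0.1373), and sets G (0.1576) and A (0.1579) were alike. Set C was second highest in 265 members and set G in 230. Several leading genes were shared with set G, whose cells had 1236, 549 and 974 CPM of *Apoe* and 396, 314 and 338 of *C4b*. Set G also had 115, 127 and 93.5 CPM of *Cfb*, 78.2, 101 and 102 of *Aoc3* and 174, 170 and 192 of *Steap4*. *Cfb*, *Aoc3* and *Steap4* were each above the members in some libraries and below in others. *Tmem176b*, another leading gene, was higher in set G in each library. *Sfrp1* and *Gpx3* were higher in members than in set G in each library (*Sfrp1* 395 against 232, 566 against 278 and 487 against 276 CPM). So were *C7*, *Gpc3* and *Sult5a1*. Of the lower genes *Thbs4* was lower still in set G (207, 261 and 162 CPM). *Postn*, *Cd55*, *Fbn1* and *Igfbp5* were lower in members than in set G.

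The diet comparison asked how members differed between WT HFD and WT CD. At the same minimum, reached in at least 1 of both libraries, 2833 genes were compared. Of these, 65 were at least 1.5-fold higher in WT HFD (2.29%) and 35 at least 1.5-fold lower (1.24%). These counts and the medians below kept the set and gate genes, whose levels the selection shaped. *Apod*, at 1266 CPM in WT CD members and 748 in WT HFD, was among the 35, and *Sfrp4* among the 65. With library sizes scaled by TMM the split turned to 31 higher and 51 lower, so the balance of directions is not a result. The median log2 ratio over all genes was 0.09. Of the 100 genes, 91 had the same sign in other FAPs, where the higher genes had a median of 0.33 and the lower genes −0.38. In members the medians were 0.66 and −0.76. The genes were chosen on the members' own ratios, so nothing is read from the smaller ratios elsewhere.

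Collagen and fibrillar matrix genes leaned higher in WT HFD members. Of 28 tested, 10 were at least 1.5-fold higher and none lower, against 65 and 35 of all 2833 genes. The list median was 0.46 in members and 0.22 in other FAPs (TMM scaling 7 higher and a median of 0.39). With the mean over cells of CPM 6 of 27 were higher, and *Col3a1* was not among them. *Sparc* was past 1.5-fold under neither alternative. *Col3a1*, a fibrillar collagen chain gene, stood at 2079 CPM in WT CD and 3340.2 in WT HFD, a log2 ratio of 0.68. *Col6a3* went from 287 to 477 CPM, *Sparc*, a collagen-binding matricellular protein gene, from 2481 to 3821, and *Mfap4* from 461 to 831. *Lox*, which encodes the collagen cross-linking lysyl oxidase, went from 149 to 241. In KO HFD members these 5 genes stood at 2522, 386, 2943, 715 and 201 CPM, between the other libraries. Over the list the genotype median was −0.24, with none of 28 past 1.5-fold, against 1.09% higher and 0.561% lower of all genes. *Thbs1*, a gene of this list, was at least 1.5-fold higher in KO HFD members under 2 alternatives (1 of 27 each). These were the mean over cells of CPM and leaving out the 3 top cells per library.

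Part of the heat shock and chemokine lists stood lower in WT HFD members, against 35 of all 2833 genes (1.24%). Of 13 heat shock chaperone genes 4 were at least 1.5-fold lower (*Hspa1b*, *Hspa1a*, *Hspb1* and *Hsp90aa1*) and none higher, with a list median of −0.40, and −0.27 in other FAPs. *Hspa1b* stood at 290.1, 129 and 179 CPM in WT CD, WT HFD and KO HFD. Of 10 chemokine and cytokine genes 3 were lower (*Cxcl13*, *Ccl2* and *Il33*). *Cxcl13* was not even over cells: 170 of its 200 UMIs in WT CD sat in 3 members, and its UMIs numbered 54 in WT HFD and 0 in KO HFD.

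**Figure D4:**
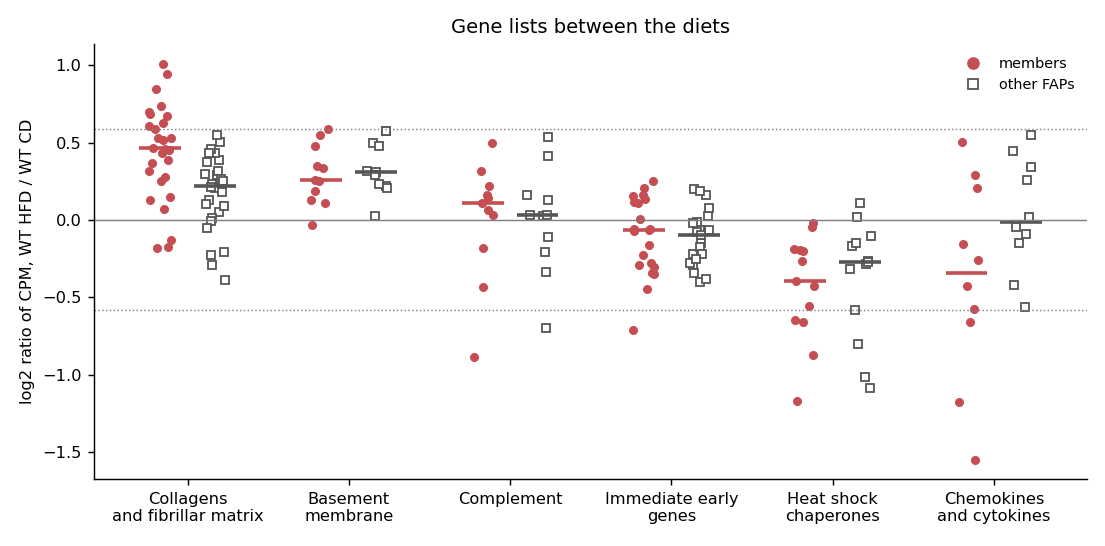
Log2 ratio of CPM between WT HFD and WT CD for the tested genes of 6 lists, in members (circles) and other FAPs (squares); bars are list medians and dotted lines mark 1.5-fold. The collagen list has a median of 0.46 in members and 0.22 in other FAPs, and the heat shock list −0.40 and −0.27.

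Among the largest single differences between the diets, *Hpgd*, which encodes the enzyme that inactivates prostaglandins, had 8.03 CPM in WT CD members and 50.05 in WT HFD (log2 ratio 2.64, 2.004 to 3.28), and other FAPs gave 2.53. *Angptl4*, a lipoprotein lipase inhibitor induced by fatty acids, had 17.4 and 50.05 CPM (1.53, 1.05 to 2.01), and other FAPs gave 2.08. *Sult1e1*, the estrogen sulfotransferase, had 332 CPM in WT CD and 82.2 in WT HFD (−2.01, −2.26 to −1.77), and *Igfbp3*, an IGF carrier, 227 and 85.9 (−1.40, −1.65 to −1.15). In KO HFD these 4 genes stood at 32.1, 43.3, 54.2 and 102 CPM, each nearer to WT HFD than to WT CD. The interferon genes *Ifit3* and *Isg15* were also among the 10 highest, but 86 of the 101 *Ifit3* UMIs in WT HFD sat in 3 members, and without the 3 top cells per library its ratio was 0.16 instead of 2.56.

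Among the other lists, against 2.29% higher and 1.24% lower of all genes, 3 of 11 matrix proteases and inhibitors were higher in WT HFD (*Mmp14*, *Adamts5* and *Timp1*; 1 with TMM scaling), 3 of 13 interferon genes (none of the 10 tested without the 3 top cells per library) and 2 of 13 lipid genes (*Abca1* and *Angptl4*). Single genes were higher in the TGF-β ligand (*Tgfb2* of 4), basement membrane (*Col4a2* of 11), Wnt (*Fzd4* of 6) and adipogenic (*Ly6a* of 9) lists. With TMM scaling none of the 11 basement membrane, 6 Wnt and 8 adipogenic genes then tested was past 1.5-fold, and without the 3 top cells per library none of 11, 6 and 7 was higher. The lipid list then counted none of 12 and none of 11, but *Angptl4*, near the minimum of 50 CPM, kept its ratio at 1.46 and 1.58. Without the top cells 2 TGF-β ligands were tested and neither was higher. Single genes were lower in the complement (*Vtn* of 11), immediate early (*Nr4a1* of 21), retinoid (*Dhrs3* of 3), IGF (*Igfbp3* of 8) and steroid (*Sult1e1* of 8) lists. None was past 1.5-fold among 7 TGF-β and BMP receptors, 6 antagonists, 12 SMAD targets, 5 opioid, 6 small proteoglycan or 7 universal progenitor genes.

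Other genes were further apart in members than in other FAPs. *Angptl7* had 87.4 CPM in WT CD members and 22.7 in WT HFD (−1.95), with 0.02 in other FAPs. *Sfrp4*, a gene of set C, had 31.2 and 103 CPM (1.72), with −0.05 in other FAPs. Of its 195 WT HFD UMIs 94 sat in 3 cells, and without the 3 top cells per library its ratio was 1.09. The rule scored set C against set E, so the selection limited *Sfrp4* in members and nothing is read from its gap. *Hbegf*, an EGF receptor ligand, had 110.2 and 50.6 CPM (−1.12) and *Plk2*, a stress-induced kinase gene, 91.3 and 38.5 (−1.25). Other FAPs gave −0.22 for *Hbegf* and −0.52 for *Plk2*. The differences between members and other FAPs in these ratios were not tested.

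The genotype comparison set KO HFD against WT HFD, which also serves as the high-fat library of the diet comparison. Of 2854 genes, 31 were at least 1.5-fold higher in KO HFD members (1.09%) and 16 at least 1.5-fold lower (0.561%), with a median log2 ratio of −0.03. Set and gate genes were kept here too. *Apod*, at 748 CPM in WT HFD members and 1175 in KO HFD, was among the 31, and *Sfrp4* and *Aspn* among the 16. The split was 27 higher and 26 lower after thinning to 3000 UMIs, and 115 and 147 at a minimum of 20 CPM. The balance of directions is therefore not a result here either. The 3 largest ratios, of *Jchain*, *Igkc* and *Ighm*, came mostly from the single member rich in immunoglobulin RNA, and without that cell they were −0.44, 0.21 and 1.15, with 28 genes higher and 15 lower in all. *Cd74*, the next, also rested on few cells, with 262 of its 301 KO HFD UMIs in 1 member. Its log2 ratio was 4.33 with and 4.21 without the immunoglobulin-rich member, and 0.93 without the 3 top cells per library.

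Several named genes were lowest in WT HFD. *Ccl2*, the monocyte chemoattractant, had 154, 52.7 and 198 CPM in WT CD, WT HFD and KO HFD members, a genotype log2 ratio of 1.91 (1.60 to 2.22), while other FAPs gave −0.18. *Vtn*, which encodes vitronectin, had 113, 61.1 and 142 CPM (1.22, 0.92 to 1.52). *Plk2* had 91.3, 38.5 and 97.1 CPM and *Rasl11b* 65.2, 29.5 and 67.0. For these 4 genes WT CD and KO HFD were nearer to each other than to WT HFD, so their diet and genotype ratios both turn on the same WT HFD value.

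Single genes were lower in KO HFD members. *Mmp3*, the protease stromelysin-1, had 74.2, 72.7 and 24.4 CPM in WT CD, WT HFD and KO HFD (−1.58, −2.01 to −1.15), with −0.30 in other FAPs, and was found in 20 WT HFD and 19 KO HFD members. *Aspn*, a small leucine-rich proteoglycan gene of set F, had 440.5, 660.1 and 396 CPM (−0.74), with −0.51 in other FAPs. The rule scored set F against set E, so the selection limited *Aspn* in members and its values only describe them. *Tgfb2*, a TGF-β ligand gene, had 39.2, 64.3 and 29.8 CPM (−1.11). Of the *Tgfb2* UMIs in WT HFD 65 of 122 sat in 3 cells, and without the 3 top cells per library the ratio was −0.37. *Eif3j1*, an initiation factor subunit gene, had 93.8, 88.0 and 28.6 CPM (−1.62), with −2.10 in other FAPs, while its near-identical copy *Eif3j2* had 7.71, 11.6 and 57.7 (2.32), with 2.36 in other FAPs. How reads were assigned between the 2 copies was not tested, so the level of each is uncertain.

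By list, *Ccl2* and *Ccl7* of 10 chemokine and cytokine genes, *Nr4a1* of 21 immediate early genes, *Vtn* of 11 complement genes and *Sox9* of 2 nerve-associated genes were at least 1.5-fold higher in KO HFD. *Isg15* and *Ifit3* of 13 interferon genes, *Sult1e1* of 8 steroid genes and *Tgfb2* of 4 TGF-β ligands were lower, and of 11 proteases and inhibitors *Timp1* was higher and *Mmp3* lower. Over all genes 1.09% were higher and 0.561% lower. Without the 3 top cells per library *Ifit3* and *Isg15* gave −0.26 and −0.27, and no protease, inhibitor or TGF-β ligand was past 1.5-fold, but only 10 and 3 genes of these lists then reached 50 CPM. *Mmp3* itself still gave −1.31. *Sult1e1* was not past 1.5-fold with TMM scaling. None of the 13 heat shock genes was past 1.5-fold, with a list median of 0.27 in members and 0.28 in other FAPs.

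**Figure D5:**
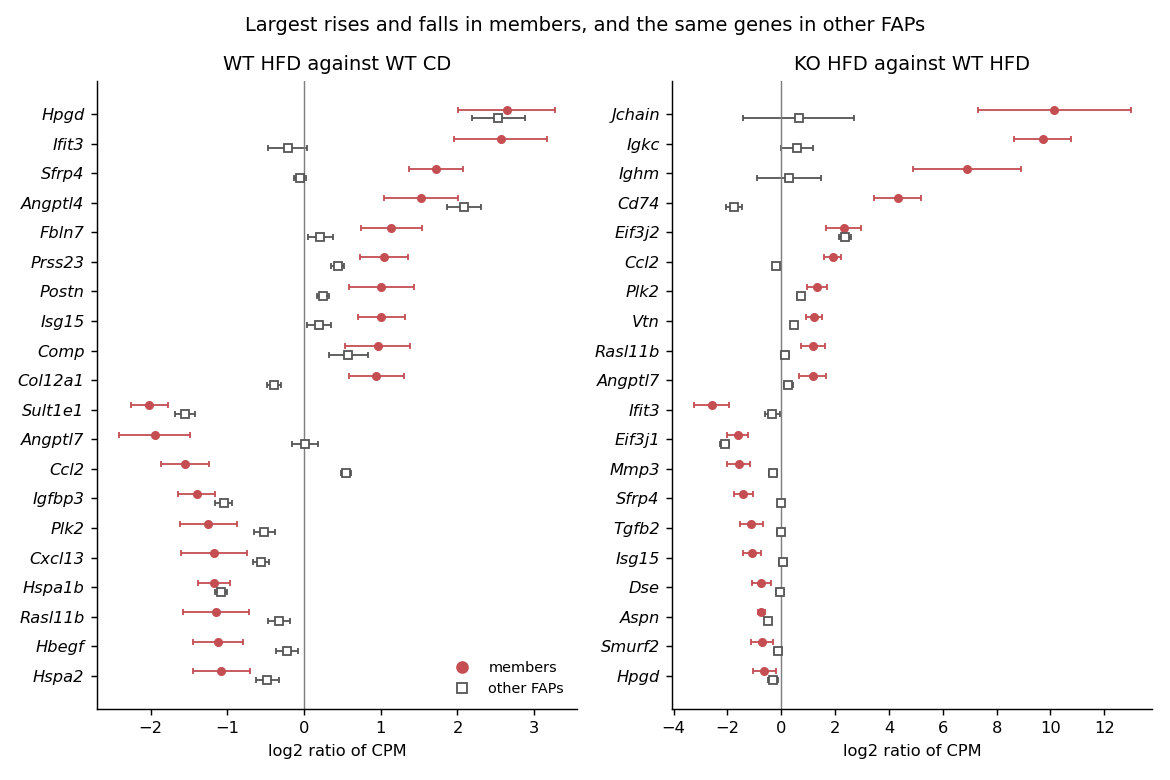
Log2 ratio of CPM for the 10 largest rises and 10 largest falls in members, for WT HFD against WT CD (left) and KO HFD against WT HFD (right), with the same genes in other FAPs (open squares); bars are 95% counting intervals. *Hpgd* differed in both kinds of cell (2.64 and 2.53), and *Ccl2* went opposite ways between the diets (−1.55 and 0.55).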

How the data were processed

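Diaphragm mononuclear cells were freed with collagenase II, dead cells were excluded with DAPI, and libraries were made with the 10x Genomics 3′ kit v3.1. The authors deposited raw UMI counts per gene and barcode, made with Cell Ranger 6.1.1 per the labels (6.1.0 in the file headers) against mm10; 32285 genes were listed. No further cell filter was applied. Python 3.11.15, scanpy 1.11.5 (Scrublet; 1.23% of barcodes called doublets, which were kept) and edgeR 4.0.16 (TMM scaling only) were used. The barcodes shared by 2 libraries numbered 7, 7 and 2, and were kept.

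FAPs and members were selected as described, on log1p counts per 10000 z-scored over all FAPs. Counts were summed over members and over other FAPs in each library and expressed per 1000000 (CPM). Intervals were exact Poisson for levels, exact Clopper-Pearson for shares and a normal approximation for log2 ratios. A gene was tested with at least 50 CPM and counted past 1.5-fold. The 28 set genes and 5 gate genes were left out of the counts against other FAPs but not of the diet and genotype counts. Genes named were the 4 of set E, the 12 furthest higher and lower against other FAPs by the value nearest 0 over the 3 libraries, the 10 largest rises and falls per comparison, and members of 24 gene lists. Within the members, genes with at least 100 CPM were ranked likewise, 10 per direction. The members, lists and rules were chosen with earlier results of these data known. Simulated counts were Poisson sums with the same rate per gene in every library, and the changed genes had at least 100 CPM. All 100 genes raised and all 100 lowered 2-fold were recovered in each comparison. Of the genes left unchanged 0 of 2502 (members against other FAPs), 2 of 2705 (diet) and 0 of 2713 (genotype) were called. The simulated sums had no uneven spread over cells, which the real ones had, so these calls give no error rate for these data. Alternatives changed the scoring, the genes of set E, the cell filters, the scaling and the minimum level; leaving out single cells was added after seeing the data.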

Additional observations from a re-analysis of the deposited data

Results flagged for a closer look

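A gene named in the diet or genotype comparison was set apart here when its 95% counting intervals in the members and in the other FAPs of the same libraries lay on opposite sides of 0. Genes with opposite signs but an interval that reached 0 were not. The difference between them was not tested in any of these cases, since each group is 1 library. Between the diets *Col12a1*, a fibril-associated collagen gene, had a log2 ratio of 0.94 in members and −0.39 in other FAPs, and *Ccl2* had −1.55 in members and 0.55 in other FAPs. Between the genotypes *Ccl2* had 1.91 in members and −0.18 in other FAPs. *Cd74*, the MHC class II invariant chain, had 4.33 in members and −1.76 in other FAPs, and 262 of its 301 UMIs in KO HFD members sat in 1 cell. *Ccl2* was uneven over cells as well, with 238 of its 480 UMIs in WT CD and 194 of its 512 in KO HFD in the top 3 members; without the top 3 per library its ratios were −1.12 and 1.78.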

How the results depend on the processing

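No paired analysis was possible because each group has 1 library and the labels give no replicate numbers that pair them. With z-scores taken within each library the member share was 16.6% in WT CD and 15.1% in WT HFD. With a minimum of 20 CPM, the counts were 242 higher and 102 lower for diet, 115 higher and 147 lower for genotype, and 81 lower against other FAPs. TMM scaling gave 31 higher for diet, and 38 higher with 34 lower against other FAPs. Thinning to 3000 UMIs gave 26 lower for genotype. Leaving out, for every gene, the 3 cells with most of its UMIs (chosen after seeing the data) gave 33 higher for diet, 8 lower for genotype and 73 lower against other FAPs. It takes a larger part of smaller groups of cells. This favours lower values in members than in other FAPs, and in WT HFD than in the other libraries. In that setting *Ighm* and *Jchain* turned to −2.03 and −0.45 between the genotypes. *Jchain* also turned to −2.06 without *Apod* in the set, −0.42 with at least 2 of the 4 genes detected, and −0.44 without the immunoglobulin-rich member. Of the counts and shares under the alternatives, 95 stayed within 1.5 times or the interval and 12 moved. Of the values of single named genes, 686 stayed, 161 moved and 5 reversed. Among the 24 genes named against other FAPs, 18 moved under thinning and 11 to 15 when 1 gene of the set was dropped, none reversing. Depth limits the low genes: 50 CPM was about 95 UMIs in WT HFD members.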

Other observations

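*Eif3j1* lies at chr2:122028546-122056598 (GRCm38), 3.90 Mb from *Thbs1* at chr2:118111876-118127133. Of the 27 tested genes within 10 Mb of *Thbs1* it was the 1 past 1.5-fold between KO HFD and WT HFD members. Over all 2854 genes compared, 1.09% were higher and 0.561% lower, so nothing is read from this count. *Thbs1* itself was higher in *Apod*-rich members of WT CD (559 CPM against 126) and KO HFD (706 against 148) and not in WT HFD (102 against 136), where the value rests on 7 UMIs. With the split at 10 *Apod* UMIs *Thbs1* was higher in WT CD, WT HFD and KO HFD members, at 252, 251 and 437 CPM against 131, 112 and 148. In other FAPs with 20 or more *Apod* UMIs it stood at 470.4, 563 and 495 CPM against 202, 248 and 235 in those with fewer.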
